A study of Mus musculus with 10 samples.

Results

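The 37 genes described here repair DNA crosslinks and bulky DNA adducts or signal the damage, and they were taken as a named list from 21938 protein-coding mouse genes. Their regions are the called intervals of all 5 ATAC-seq peak lists that lie in a listed gene or within 5 kb of it. Untreated cells (Ctrl) had 176 such regions of 122298 called, and the 4 treated groups had 215 of 158621 (Oxali), 274 of 174048 (Cispl), 170 of 118949 (IFNγ) and 233 of 174709 (Oxali + IFNγ). Merged over the lists, they form 303 of 211107 regions, and no window of a listed gene overlapped that of another.

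ATAC-seq marks open chromatin by the cuts that a transposase makes in it. It was run on Myc-CaP cells, a mouse prostate cancer line of male FVB/NJ origin that is driven by a Myc transgene. The 10 libraries form 5 groups of 2, all treated for 48 h. Ctrl received no agent, Oxali and Cispl received oxaliplatin or cisplatin at 2 µM, IFNγ received interferon-γ at an amount that the labels give as 1000 pg, and the last group received oxaliplatin and interferon-γ at those doses. By the labels the groups share the line and differ in the agent. The authors pooled both libraries of a group before calling peaks, so each group is 1 list, no spread between replicates can be given from these lists and they allow no test. A region that a list does not hold has no pileup there. Every interval below is a 95% interval that covers counting error only.

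Platinum drugs bind neighbouring bases within a DNA strand and, less often, bases on opposite strands. Crosslinks between strands are unhooked and repaired by the Fanconi anaemia proteins together with nucleases, translesion polymerases and homologous recombination. Lesions within a strand are cut out by nucleotide excision repair, and the kinases Atm, Atr, Chek1 and Chek2 hold the cell cycle while repair proceeds.

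Levels below are summit pileups divided by the average pileup that the peak caller took as genome background for the list. A summit pileup is the number of overlapping windows, each centred on a read end, at the highest point of a region. Where 5 values stand in a row without labels, they follow the order Ctrl, Oxali, Cispl, IFNγ, Oxali + IFNγ, and 4 values follow it without Ctrl. The background was 12.1, 11.3, 13.8, 9.62 and 12.9. The IFNγ list was the shallowest, at 79.3% of Ctrl, and the Cispl list ends at a −log10 p of 2.99 where the others reach 2.00. Regions with q up to 0.01 are called strong. A strong region of a treated list is gained if not even 1 bp of it overlaps a Ctrl region, and a strong Ctrl region is lost if the treated list has nothing over it. Among markers of prostate epithelium, Krt8, Krt18, Hoxb13 and Cldn4 had a start-site region in Ctrl, with levels of 88.8, 3.54, 93.8 and 32.9, while Epcam and Cdh1 had none. Among markers of other cells, Myh11 and Pecam1 had a start-site region, with levels of 24.7 and 2.39, and Ptprc, Cd3e and Cdh5 had none.

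The stretches below carry the main differences. The first pair is the upstream 250 bases of the start sites with the lowest and the highest ratio to Ctrl with oxaliplatin. The ratio is that of levels over genome background, and the bases are from RefSeq promoters on GRCm38.p6. Capitals mark GGGCGG, the GC box of the Sp1 family, on either strand. The Rad51c stretch is chr11:87404507-87404756 and the Chek1 stretch is chr9:36726659-36726908, both printed along the minus strand.
Rad51c: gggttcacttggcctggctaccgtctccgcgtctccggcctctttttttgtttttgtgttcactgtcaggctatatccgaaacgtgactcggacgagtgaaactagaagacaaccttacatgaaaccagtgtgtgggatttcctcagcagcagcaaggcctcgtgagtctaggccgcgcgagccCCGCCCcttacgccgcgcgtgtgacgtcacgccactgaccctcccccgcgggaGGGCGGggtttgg
Chek1: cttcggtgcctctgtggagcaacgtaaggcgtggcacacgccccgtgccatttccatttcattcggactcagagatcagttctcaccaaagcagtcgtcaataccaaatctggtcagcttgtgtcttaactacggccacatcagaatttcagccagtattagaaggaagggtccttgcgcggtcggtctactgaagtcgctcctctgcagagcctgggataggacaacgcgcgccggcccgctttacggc

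The next stretches are 201 bases at the summits of 4 regions gained with a platinum drug, read along the plus strand of the same build. They lie in a coding exon of Ercc6 at chr14:32517186-32517386, in an intron of Fancc at chr13:63350370-63350570, upstream of Chek2 and inside Hscb at chr5:110834801-110835001, and in an intron of Fancm at chr12:65114064-65114264. Capitals mark TGAGTCA, the AP-1 site, on either strand.
Ercc6: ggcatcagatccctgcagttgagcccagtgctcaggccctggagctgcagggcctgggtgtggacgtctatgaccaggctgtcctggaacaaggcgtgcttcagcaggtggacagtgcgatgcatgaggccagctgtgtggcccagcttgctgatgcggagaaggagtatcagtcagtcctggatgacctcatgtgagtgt
Fancc: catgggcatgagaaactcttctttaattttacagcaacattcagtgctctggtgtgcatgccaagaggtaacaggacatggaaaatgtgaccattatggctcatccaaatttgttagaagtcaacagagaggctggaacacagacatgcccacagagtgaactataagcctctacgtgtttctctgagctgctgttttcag
Chek2: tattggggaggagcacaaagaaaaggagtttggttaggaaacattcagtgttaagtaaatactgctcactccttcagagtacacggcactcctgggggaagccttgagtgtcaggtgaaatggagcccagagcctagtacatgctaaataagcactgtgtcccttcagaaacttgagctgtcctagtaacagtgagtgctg
Fancm: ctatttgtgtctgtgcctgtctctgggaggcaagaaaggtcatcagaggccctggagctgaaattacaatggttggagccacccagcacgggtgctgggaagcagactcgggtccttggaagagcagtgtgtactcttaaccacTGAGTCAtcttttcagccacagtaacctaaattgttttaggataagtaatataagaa

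The last pair marks the strongest regions lost with oxaliplatin, in an intron of Brip1 at chr11:86134732-86134932 and in an intron of Rev1 at chr1:38103262-38103462, both on the plus strand. Capitals mark GAAANNGAA, letters found in sites of the interferon regulatory factors (IRF), on either strand.
Brip1: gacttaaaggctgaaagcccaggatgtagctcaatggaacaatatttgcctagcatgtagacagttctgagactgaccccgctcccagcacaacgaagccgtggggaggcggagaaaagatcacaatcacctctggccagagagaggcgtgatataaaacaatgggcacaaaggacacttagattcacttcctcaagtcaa
Rev1: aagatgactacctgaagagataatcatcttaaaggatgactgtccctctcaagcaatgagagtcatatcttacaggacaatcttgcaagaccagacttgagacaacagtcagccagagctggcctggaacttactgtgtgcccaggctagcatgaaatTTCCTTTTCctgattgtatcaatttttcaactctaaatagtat
All are the C57BL/6J reference sequence and not that of the FVB/NJ line.

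Start-site regions overlap 1 kb on either side of the start of a protein-coding transcript. They made up 57, 62, 69, 59 and 73 of the regions at the repair genes, with median levels of 93.8, 66.4, 47.6, 56.0 and 36.8. The remaining 119, 153, 205, 111 and 160 regions, in introns, exons and flanks, had median levels of 7.41, 6.65, 5.16, 6.24 and 7.21. The start sites thus stood above the rest in every list, and the number of regions away from start sites was highest in Cispl, at 205 against 119 in Ctrl.

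By role, the Fanconi genes had 15 start-site and 34 other regions in Ctrl and 19 and 54 in Cispl. The recombination genes had 8 and 32 in Ctrl and 11 and 53 in Cispl. The excision genes had 20 and 31 in Ctrl and 23 and 56 in Cispl. The translesion genes had 7 and 16 in Ctrl and 9 and 28 in Cispl, and the checkpoint genes 7 and 6 in Ctrl and 7 and 14 in Cispl. From Ctrl to Cispl each role thus added more regions away from start sites than at them, as did the windows of all genes, which had 15485 and 64442 in Ctrl and 17686 and 94082 in Cispl. With Oxali + IFNγ the pairs were 21 and 53 for Fanconi, 13 and 33 for recombination, 22 and 44 for excision, 11 and 19 for translesion and 6 and 11 for checkpoint genes, and 17421 and 90153 for all genes. There the recombination and translesion genes added more at start sites, and the other roles and all genes did not.

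Start sites of the repair genes were open in all 5 lists and, by genome background, lower than in Ctrl in each treated list, Chek1 with Oxali excepted. Of all genes with a value in both lists, 10434 of 12357, 10920 of 12421, 11611 of 12243 and 10842 of 12412 lay below Ctrl too. Of the 37 genes, 36 had a start-site region in each list, with Ctrl levels from 31.6 at Fancg to 194 at Fancc and a median of 100.5. Of all 21938 genes, 57.3, 59.5, 60.1, 56.9 and 60.7% had such a region. Over all genes with such a region the Ctrl median was 93.9. The median ratio to Ctrl was 0.69, 0.59, 0.68 and 0.49, where the medians over all genes were 0.73, 0.64, 0.68 and 0.54. In bulk data, fewer cells with an open site and a less open site in each cell cannot be told apart. Regions present in all 5 lists had median levels that differed from Ctrl by 0.37, 0.26, -0.23 and 0.37 on the log2 scale. Relative to those shifts the members' median log2 ratios were -0.90, -1.01, -0.33 and -1.40 in place of -0.53, -0.75, -0.56 and -1.03, and with the deposited fold over local background they were -0.28, -0.43, -0.22 and -0.47. The median kept its direction under all 3 scalings, while single genes did not. Relative to the shift, Fancf, Fancg and Fanci lay above Ctrl with IFNγ, the highest at 1.04. With the deposited fold, Nbn and Polh lay above it with Oxali, Fancm and Polh with IFNγ, and Fancm with the combination, the highest at 1.08.

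A level at least 1.5 times lower than Ctrl was found at 15 of 36 genes with Oxali, where 32% of all genes were that much lower. For Cispl the count was 23 (57.9% of all genes), for IFNγ 17 (44.7%) and for the combination 31 (70.2%). As shares of the 36 genes these were 41.7, 63.9, 47.2 and 86.1%. No listed gene was at least 1.5 times higher with any treatment, while 5.11, 4.56, 0.466 and 5.83% of all genes were. These counts hold for the genome background. Relative to the shift of regions in all 5 lists, 29, 33, 10 and 36 genes were at least 1.5 times lower (74.4, 78.2, 16.4 and 82.8% of all genes), and with the deposited fold 2, 7, 2 and 12 (4.40, 13.6, 6.80 and 28.9% of all genes). No listed gene was at least 1.5 times higher under either. Counts, ratios and rankings by gene and role below use the genome background unless stated otherwise.

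**Figure D1:**
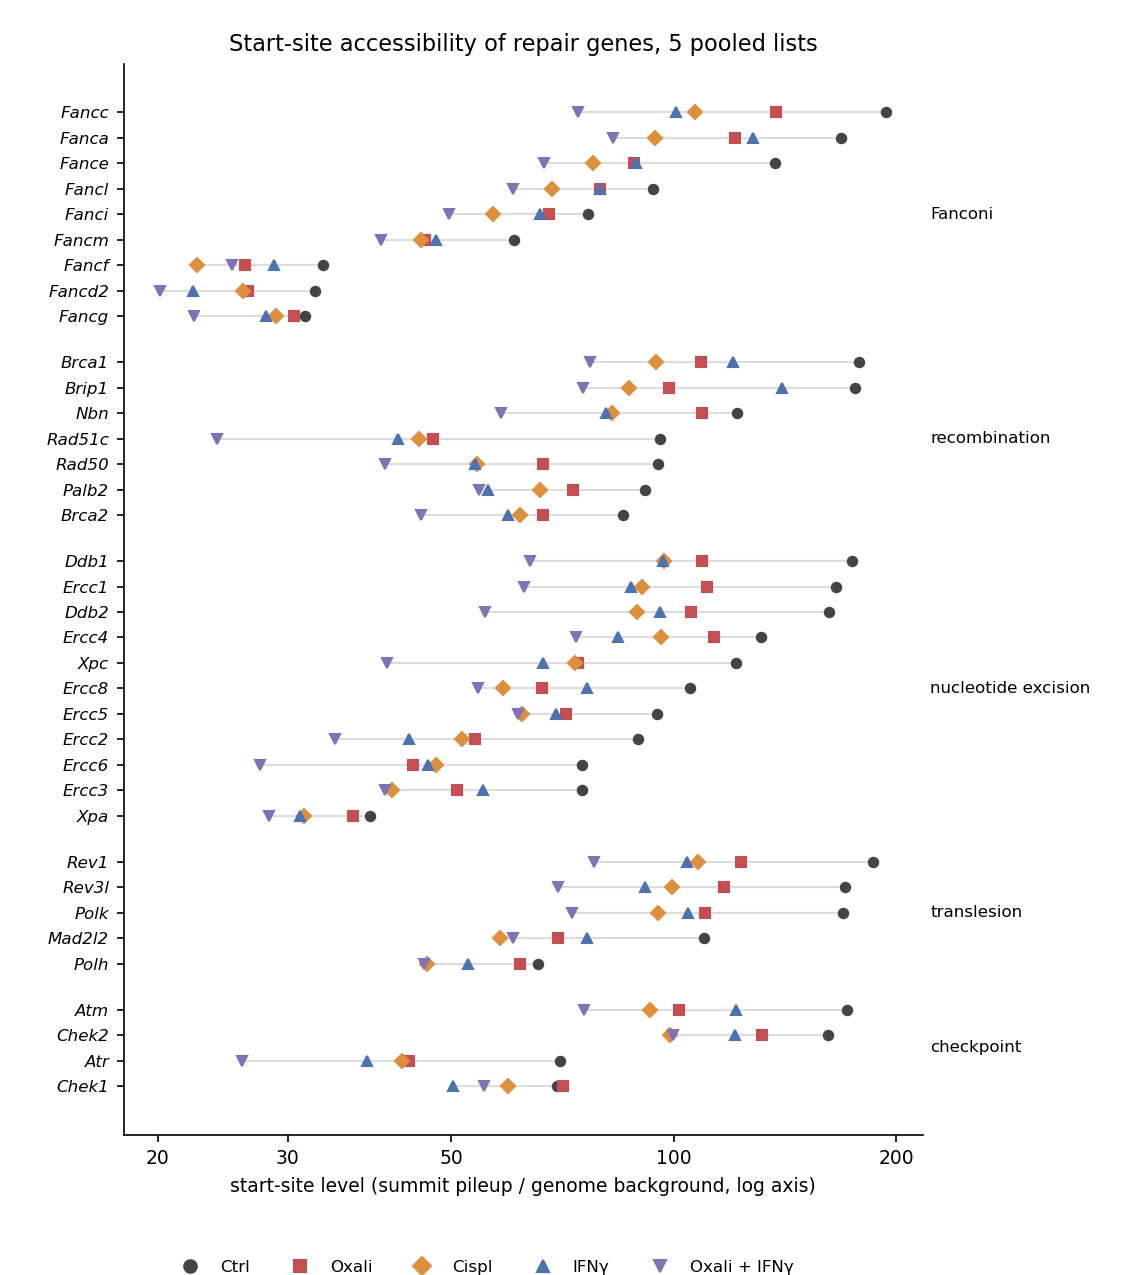
Start-site level (summit pileup over genome background, log axis) of the 36 genes with a start-site region, ordered by role and by Ctrl level, with 1 marker per pooled list. The Ctrl marker is the rightmost for each gene except Chek1, where Oxali lies slightly to its right, and Oxali + IFNγ is the leftmost for most genes.

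**Figure D2:**
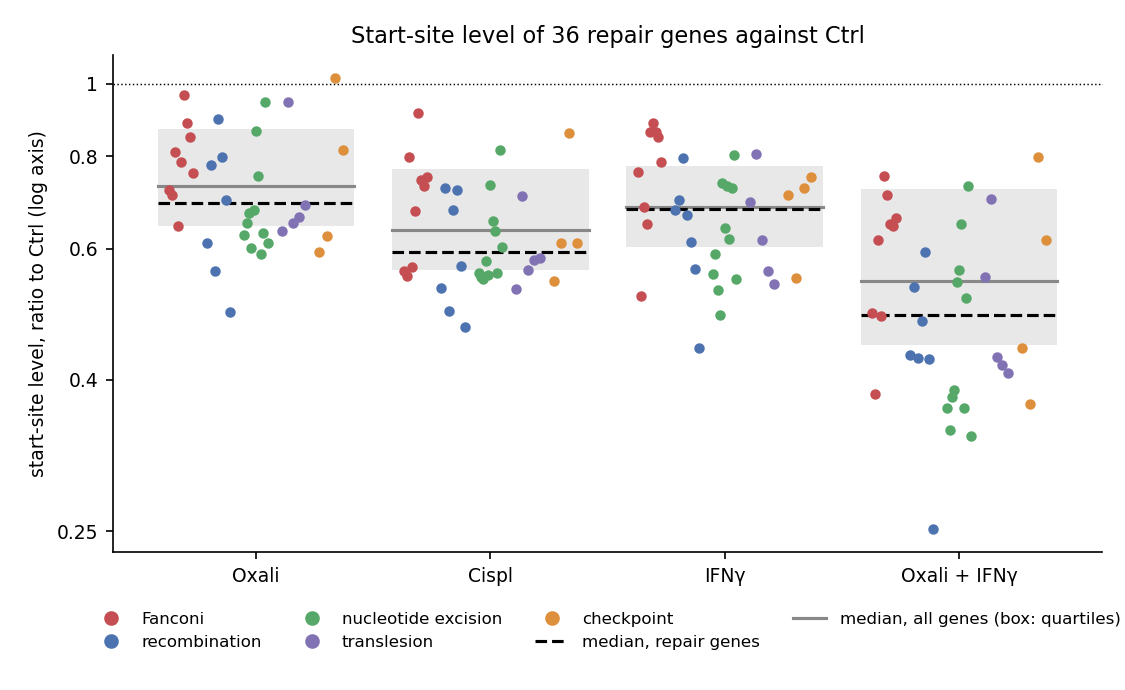
Ratio of the start-site level to Ctrl (log axis) for the same 36 genes, 1 point per gene coloured by role, in each treated list. Dashed lines are the members' medians (0.69, 0.59, 0.68 and 0.49), solid lines the medians over all genes, and grey boxes the quartiles over all genes.

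Among the recombination genes, Rad51c, which acts in strand exchange, had the lowest ratios of all 36 genes by genome background. With the deposited fold, other genes lay lower in some lists, such as Ercc1 with Oxali and with the combination. Its summit pileup was 1163, 532, 621, 407 and 311, which is 95.8, 47.2, 45.1, 42.3 and 24.1 as levels. The ratio to Ctrl was 0.49, 0.47 and 0.44 with the single agents and 0.25 (interval 0.22 to 0.29) with the combination. All 4 treated lists lay below Ctrl, and the combination lay below each single agent. Rad50, a subunit of the complex that senses broken ends, had pileups of 1156, 749, 746, 517 and 524, with a lowest ratio of 0.43. Palb2, which links Brca1 to Brca2, had 1111, 824, 906, 539 and 702, and its lowest ratio, 0.59 with the combination, was the highest of the lowest ratios in this role.

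The other recombination genes lay between these. Brca1, which promotes recombination at broken ends, had pileups of 2162, 1228, 1304, 1158 and 993. Brip1, a helicase that partners with Brca1, had 2136, 1110, 1197, 1348 and 973. Both had a ratio of 0.43 with the combination, and as levels both were lower with either platinum drug than with IFNγ. Nbn, the regulatory subunit of the Rad50 complex, had 1479, 1233, 1134, 780 and 754. Brca2, which is needed for strand exchange, had 1036, 749, 851, 573 and 587. Their ratios with the combination were 0.48 and 0.53. All 7 genes with a value were at least 1.5 times lower with the combination, as were 70.2% of all genes, and their median ratio was 0.43 against 0.54 over all genes. Slx4, the scaffold of the unhooking nucleases, had no region within 1 kb of its coding start in any list. Its gene record runs on to 4003770 on chromosome 16, and a region at chr16:4003254-4004718 there had levels of 129, 80.0, 67.1, 109 and 69.0. It too was lower in each treated list than in Ctrl.

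Excision repair genes had the lowest median ratio with the combination by genome background, 0.39 over 11 genes. Of these, 10 were at least 1.5 times lower, as were 70.2% of all genes. With the deposited fold the recombination genes had a lower median. Xpc, which finds distorted DNA, had pileups of 1475, 836, 1010, 639 and 527. Ddb2, which hands damage to Xpc, had 1969, 1189, 1226, 922 and 716. Both had a ratio of 0.34 (interval 0.30 to 0.37 at Xpc and 0.31 to 0.37 at Ddb2) with the combination. Ddb1, the partner of Ddb2, had 2117, 1232, 1335, 930 and 824. Ercc6, which starts repair at stalled RNA polymerase, had 912, 500, 655, 447 and 355. Both had a ratio of 0.37 with the combination.

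Ercc1 and Ercc4 form a nuclease that cuts beside the lesion. Ercc1 had pileups of 2012, 1252, 1247, 842 and 810, and Ercc4 had 1593, 1280, 1322, 809 and 952. With the combination the ratio was 0.38 at Ercc1 and 0.56 at Ercc4. Ercc2 and Ercc3, the helicases of the transcription factor TFIIH, had 1086, 606, 711, 421 and 448, and 911, 573, 571, 531 and 524, with combination ratios of 0.39 and 0.54. Ercc8, which acts with Ercc6, had a ratio of 0.52 and Ercc5, the nuclease on the other side of the lesion, 0.65. The pairs Ercc1 and Ercc4, and Ercc2 and Ercc3, thus differed between their partners. Xpa, which verifies the lesion, differed least, with pileups of 471, 414, 435, 300 and 365 and ratios of 0.95, 0.81, 0.80 and 0.73. Its Ctrl level of 38.8 was the lowest in the role.

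Fanconi genes had the highest median ratio with the combination by genome background, 0.64 over 9 genes. Of these, 7 (77.8%) were at least 1.5 times lower, near the 70.2% of all genes. With the deposited fold the translesion and checkpoint genes had higher medians. Fancc, a subunit of the core complex, had the highest Ctrl level of all 36 genes, with pileups of 2355, 1552, 1471, 968 and 957, and a ratio of 0.38 with Oxali + IFNγ. Fance, which joins the core complex to Fancd2, had 1666, 997, 1070, 856 and 862 and a lowest ratio of 0.49. Fanca, also of the core complex, had 2043, 1365, 1298, 1233 and 1069 and a ratio of 0.49 too. As levels, all 3 were lower with Cispl than with Oxali. Fancd2 and Fanci, the pair that the core complex ubiquitinates, had 0.62 and 0.65. Fancl, its ubiquitin ligase, had 0.64, and Fancm, the translocase that anchors it on DNA, had 0.66.

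Fancg and Fancf, further core subunits, had the highest ratios of this role with the combination. Fancg had pileups of 384, 345, 398, 270 and 289, with ratios of 0.97, 0.91, 0.89 and 0.71. Fancf had 406, 296, 311, 277 and 325, with ratios of 0.79, 0.68, 0.86 and 0.75. Along with Fancd2, these had the lowest Ctrl levels of the role, at 31.6, 33.4 and 32.7.

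Translesion polymerase genes had a median ratio of 0.43 with the combination. Rev3l, the catalytic subunit of polymerase ζ, had pileups of 2068, 1318, 1368, 881 and 899 and a ratio of 0.41. Rev1, the scaffold that exchanges polymerases, had 2262, 1390, 1486, 1003 and 1007 and a ratio of 0.42. Polk, a further bypass polymerase, had 2058, 1244, 1310, 1005 and 940. Mad2l2, the accessory subunit of polymerase ζ, had 1334, 786, 801, 734 and 781. Their ratios with the combination were 0.43 and 0.55. Polh, which bypasses lesions within a strand, differed least, with 795, 698, 637, 507 and 592 and ratios of 0.95, 0.71, 0.80 and 0.70.

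The checkpoint kinases split. Atr, activated by single-stranded DNA, had pileups of 851, 494, 589, 370 and 336 and a ratio of 0.37 (interval 0.33 to 0.42) with Oxali + IFNγ. Atm, activated by broken ends, had 2081, 1147, 1280, 1170 and 977 and a ratio of 0.44. Chek2, its target, had 1964, 1485, 1362, 1166 and 1287 and a ratio of 0.62. Chek1, the target of Atr, had 843, 798, 820, 484 and 714, with ratios of 1.02, 0.86, 0.72 and 0.80. Its ratio above 1 with Oxali turns to 0.79 relative to the shift of regions in all 5 lists and to 0.89 with the deposited fold. By genome background the lowest level of Chek1 was with IFNγ alone, and the combination lay between IFNγ and Oxali. Under both other scalings the combination was the lowest. There the ratio at Chek1 was 0.62 against 0.85 with IFNγ relative to the shift, and 0.79 against 0.83 with the deposited fold.

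For 12 of the 37 genes a start-site region called in every list also covers the start site of a neighbour, for example Npat beside Atm, Nbr1 beside Brca1, Tex14 beside Rad51c and Lsm3 beside Xpc. There the level cannot be assigned to the repair gene alone. A further list of 55 crosslink, excision, recombination, mismatch and replication checkpoint genes had median ratios of 0.68, 0.59, 0.66 and 0.52. Of those, 26, 45, 29 and 49 were at least 1.5 times lower and 0 at least 1.5 times higher. The lower ones are 47.3, 81.8, 52.7 and 89.1% of that list, against 32, 57.9, 44.7 and 70.2% of all genes, and each of these shares is above that of the 37 genes.

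Away from start sites the members behaved otherwise. Of their 231 merged regions there, 102, 108, 95 and 105 were called both in Ctrl and in the treated list, with median ratios of 1.06, 1.03, 0.84 and 1.06. Over all regions of this kind the medians were 1.21, 1.16, 0.88 and 1.21. Relative to the shift of regions in all 5 lists, the medians above 1 turn to below 1, those over all regions as well as the members'. At least 1.5 times higher were 18, 24, 0 and 18 member regions, or 17.6, 22.2, 0 and 17.1%, where 32.7, 28.5, 4.87 and 33.9% of all regions were. At least 1.5 times lower were 9, 9, 19 and 10, or 8.82, 8.33, 20 and 9.52%, where 4.72, 6.45, 15 and 7.22% of all regions were. The share of higher regions was thus below that of all regions, those between genes included, in each treated list, a gap that could not be tested.

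The largest ratios away from start sites were found at 3 places. A Fancc intron region at chr13:63290284-63291318, which the annotation also places in 2010111I01Rik, had pileups of 23 in Ctrl, 79 in Oxali, 98 in Cispl and 109 in Oxali + IFNγ and was not called in IFNγ. Its ratios were 3.70 (interval 2.30 to 6.17), 3.76 and 4.46. A flank region of Ercc3, at 32274157-32274673 on chromosome 18, had levels of 2.22, 6.83, 5.89, 2.18 and 6.82. It was higher in each list with a platinum drug and close to Ctrl with IFNγ alone.

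An Nbn intron region at chr4:15989559-15990929 had pileups of 199, 433, 211, 152 and 650. As levels these are 16.4, 38.4, 15.3, 15.8 and 50.4. It was high in both lists with oxaliplatin and near the Ctrl level with cisplatin and with IFNγ. Its ratio with the combination was 3.07 (interval 2.62 to 3.62). The Nbn start site was lower than Ctrl in the same lists by genome background, with ratios of 0.90 and 0.48. With the deposited fold it lay above Ctrl with Oxali, at 17.2 against 16.7.

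The lowest ratios of regions called in both lists lay at different genes by treatment. With Oxali they were flank regions of Polh (ratio 0.49, interval 0.38 to 0.63) and Ddb1 (0.59, interval 0.36 to 0.97). With Cispl they were a flank region of Fanca (0.53) and the Slx4 region named above (0.52), which is away from the coding start but covers the end of the gene record and counts as a start site when all transcripts are used. With IFNγ they were introns of Rad50 and Polk. The Rad50 intron region at chr11:53663356-53664558 had pileups of 117, 196, 209, 32 and 213, and the Polk intron region at chr13:96503008-96504032 had 149, 253, 270, 53 and 218. In both, the IFNγ list alone lay below Ctrl and the lists with a platinum drug lay above it. With the combination they were introns of Fancg (0.45) and Chek2 (0.46). The largest ratios with IFNγ alone were 1.48 (interval 0.92 to 2.42) in an exon of Brip1 and 1.41 in an intron of Fancc.

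Gained regions at the repair genes numbered 55 of 208 strong Oxali regions (26.4%, interval 20.9 to 32.8), where 32.5% of all strong regions were gained. In Cispl 107 of 271 were gained (39.5%, interval 33.9 to 45.4), against 37.3% of all. In IFNγ 13 of 163 were gained (7.98%, interval 4.72 to 13.2), against 12.9% of all, and in the combination 72 of 231 (31.2%, interval 25.5 to 37.4), against 38.4% of all. These backgrounds include regions between genes. Over the windows of all protein-coding genes 29.1, 35.9, 11.9 and 34.8% of strong regions were gained, and the members' intervals hold each of these. Introns held 34, 70, 3 and 42 of the gains, and the gene's own start sites 9, 10, 3 and 16. The counts depend on list length. With lists of 100000 regions each, 26, 24 and 28 were gained with Oxali, Cispl and the combination, so Cispl was then no longer the highest. As shares these are 16.9, 15.4 and 17.9%, against 18.5, 17.4 and 20.2% of all regions. Without regions within 500 bp of the other list, gains were 32, 80, 9 and 46. These are 17.3, 32.8, 5.66 and 22.4%, against 28.0, 31.2, 8.35 and 34.2% of all regions.

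Lost regions numbered 16, 10, 21 and 13 of 174 strong Ctrl regions, or 9.20, 5.75, 12.1 and 7.47%. Over all strong Ctrl regions the shares were 9.11, 5.9, 15.8 and 7.59%. The members' shares were near these in each list. The order of the lists depends on list length. With lists of 100000 regions each, losses were 25, 24, 17 and 25, so IFNγ then had the fewest. As shares these are 15.6, 15, 10.6 and 15.6%, against 15.3, 13.6, 13.2 and 15.7% of all regions.

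**Figure D3:**
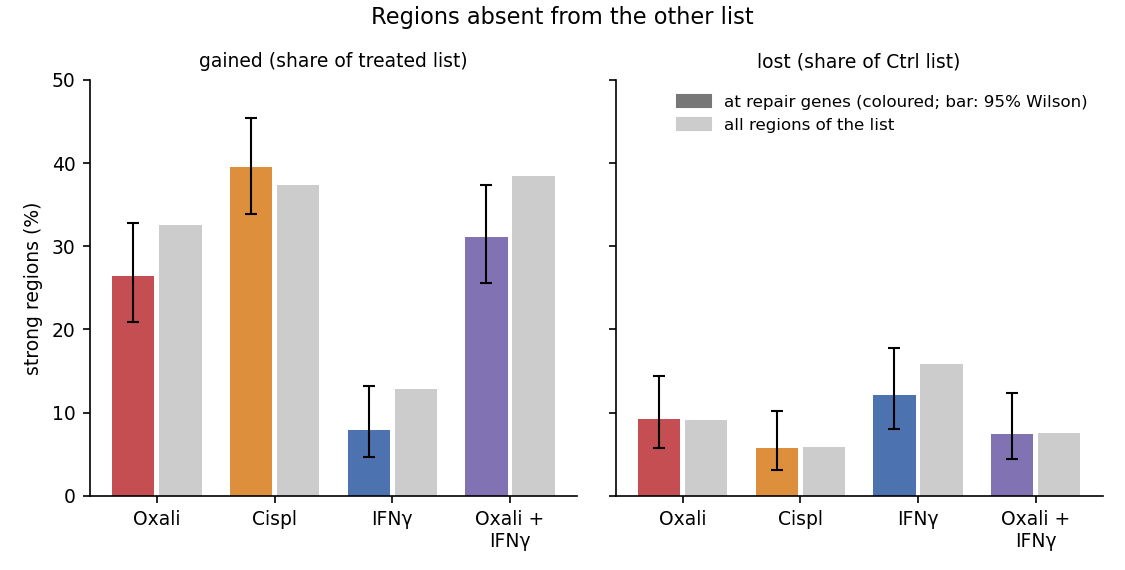
Share of strong regions (percent) gained, left, and lost, right, at the repair genes (coloured bars, with 95% Wilson intervals that cover counting error only) and over all regions (grey bars). The interval holds the share of all regions in 7 of the 8 cases and lies below it for gains with Oxali + IFNγ (31.2 against 38.4%), where the share over the windows of all genes, 34.8%, lies inside it.

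A gained region was found at 23, 32, 10 and 28 of the 37 genes, where 53.2, 61.6, 28.9 and 59.3% of all protein-coding genes had one. A lost region was found at 10, 7, 17 and 9 genes, where 22.3, 16.1, 33.3 and 19.5% of all genes had one. The repair genes are longer, with a median of 36634 bp against 17425 bp, and a longer window holds more regions. The part of gene length in these counts was not tested.

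Fancc and Ercc6 had the most gains. Fancc had 7, 12, 0 and 11, and Ercc6 had 7, 11, 0 and 7. Neither gained a region with IFNγ alone. Ddb1 had 3, 7, 3 and 6, Chek2 had 3, 6, 1 and 4, and Rev1 had 2, 6, 1 and 3. Polk had 3, 5, 1 and 3, Brip1 had 3, 5, 0 and 2, and Fanca had 3, 4, 0 and 2. Rad51c had 0, 5, 2 and 1 and Rev3l 0, 5, 0 and 1, so that both gained most with Cispl. Brca1 had 1, 4, 1 and 3, Brca2 had 2, 3, 0 and 1, and Rad50 had 1, 3, 0 and 0. Fancd2 had 3, 4, 1 and 3, Fanci had 3, 2, 1 and 3, and Fancm had 1, 2, 0 and 3. Palb2 had 3, 2, 0 and 2, Polh had 0, 1, 0 and 3, and Slx4 had 0, 3, 1 and 1. Of these 9 genes, Polh and Fancm gained most with the combination, Palb2 with Oxali, and Fanci equally in both lists with oxaliplatin. Fancl, Ercc1, Ercc2, Ercc3, Ercc4, Nbn and Atr had at most 1 in any list and none in at least 2 lists. Fance, Fancg, Atm, Xpc, Ddb2, Ercc8, Ercc5 and Xpa had at most 2 in any list. No gain was found at Fancf, Chek1 or Mad2l2. As many as 3 losses in a list were found at Fancc (3, 2, 2 and 2) and Brca1 (3, 2, 1 and 2), in both cases with Oxali.

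The gained region with the highest −log10 q was in a coding exon of Ercc6, whose reference sequence is printed above. It spans chr14:32516925-32517454 in the Cispl list, where its pileup was 395, against 192 in Oxali and 159 in Oxali + IFNγ. It was not called in Ctrl or IFNγ, and the nearest Ctrl region lay 2807 bp away. As levels these are 28.7, 17.0 and 12.3, so the Cispl value was the highest. The Fancc intron region, at chr13:63350055-63350831 in Oxali, had pileups of 123 in Oxali, 72 in Cispl and 155 in Oxali + IFNγ. Its order was the reverse, with Cispl the lowest of the called lists. The Chek2 region inside Hscb had 192, 307 and 185 and the Fancm intron region 49, 109 and 80, both highest in Cispl.

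Some gains lay close to regions already open in Ctrl. A region upstream of Ddb1 and inside Tkfc, at chr19:10602340-10602500 in Cispl, had pileups of 346, 385, 253 and 375. It lay 69 bp from a Ctrl region. With IFNγ the strongest gains were this one, a region at the Tkfc start and one at the Polk start at chr13:96541532-96541681. A Brca1 intron region at chr11:101548888-101549104 had 330 in Oxali, over a local background of 115, and 2657 bp separated it from the nearest Ctrl region. Of the gains, 23 of 55, 27 of 107, 4 of 13 and 26 of 72 lay within 500 bp of a Ctrl region, or 41.8, 25.2, 30.8 and 36.1%. Of all gained regions 18.9, 23.8, 38.6 and 16.8% did.

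The strongest losses with Oxali were in Brip1 and Rev1, the regions printed above. The Brip1 intron region at chr11:86134642-86134965 had a pileup of 91 in Ctrl, 58 in Cispl and 58 in IFNγ. The Rev1 intron region at chr1:38103201-38103538 had 83 in Ctrl, 51 in Cispl and 76 in IFNγ. Neither was called in the lists with oxaliplatin. With Cispl the strongest losses were a Polk intron region at chr13:96538227-96538376 and a flank region of Slx4 inside Nlrc3 at chr16:3974565-3974896. The Polk region had pileups of 207 in Ctrl and 158, 154 and 217 in the lists other than Cispl, and the Slx4 region had 44 in Ctrl and 38 in IFNγ. With IFNγ they were intron regions of Brip1 at chr11:86075444-86075678 and Ercc5 at chr1:44168060-44168293, which were both called in the other 4 lists.

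**Figure D4:**
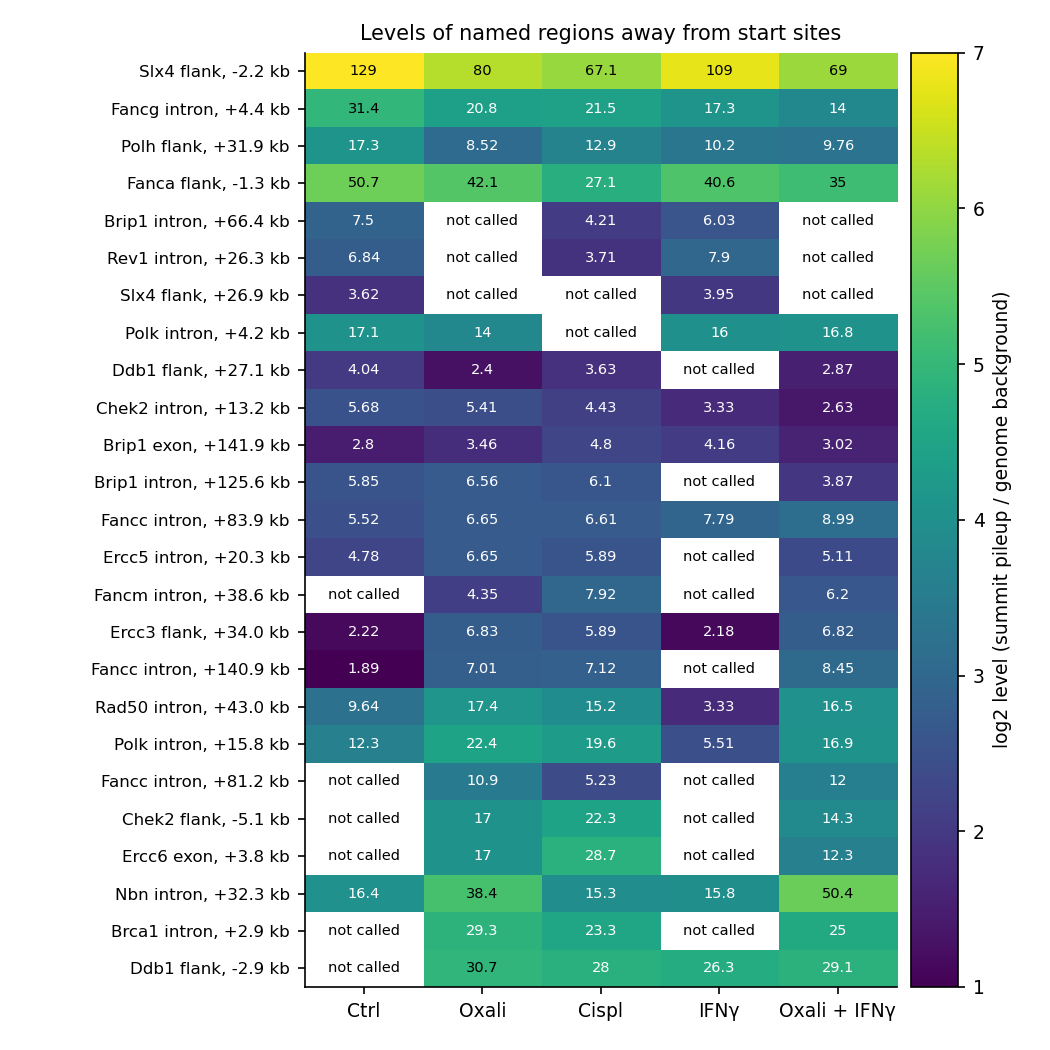
Level (summit pileup over genome background) in each pooled list, as number and as colour on a log2 scale, of the regions named by the rule away from start sites. Rows give the gene, the place and the distance of the summit from the nearest coding start in kb. Regions at the top are lower or absent with Oxali, such as those of Brip1 and Rev1, and regions at the bottom are higher, such as those of Nbn and Ercc6.

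**Figure D5:**
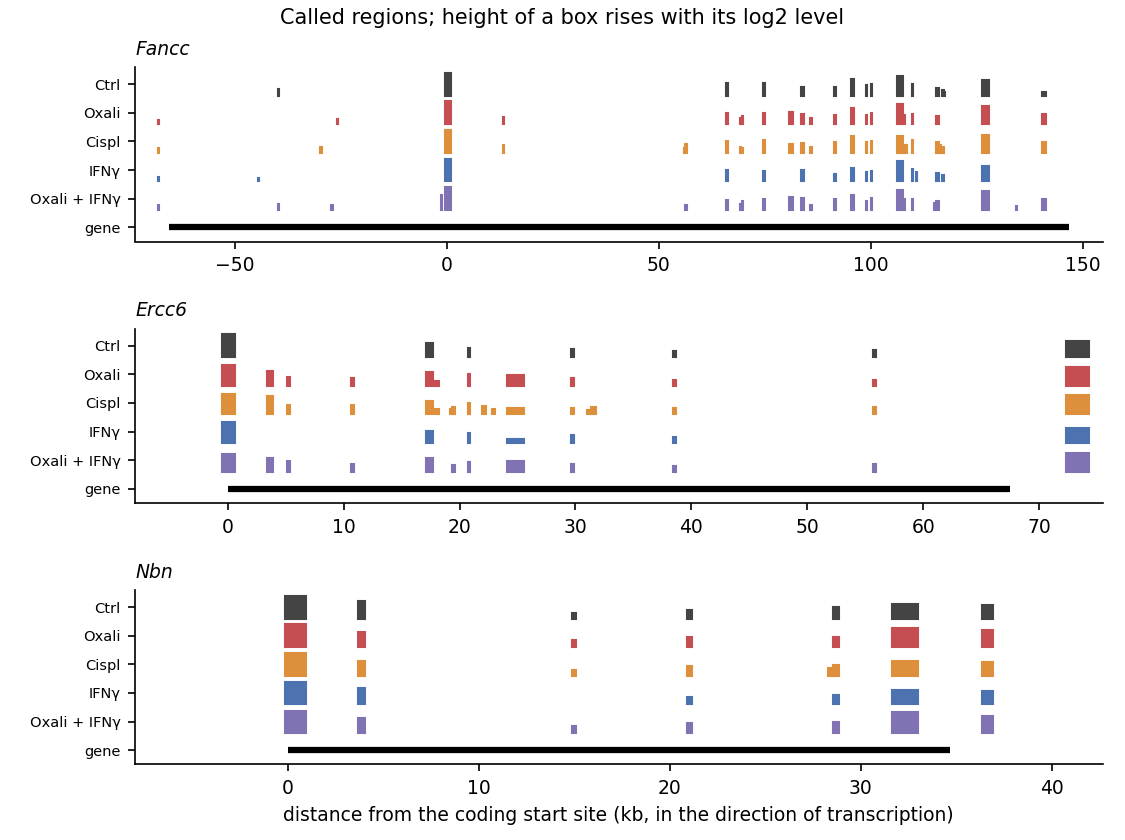
Called regions of Fancc, Ercc6 and Nbn by distance from the coding start in kb, with 1 row per pooled list. A box spans the merged interval of the lists, its height rises with the log2 level in that list, and the black line is the gene. Fancc and Ercc6 gain several boxes in the rows of the platinum drugs, while the boxes of Nbn stand at nearly the same places in all lists.

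Cisplatin carries ammine ligands and chloride leaving groups, and oxaliplatin carries a diaminocyclohexane ligand and an oxalate leaving group. At the same dose and time, start-site levels with Cispl were a median of 0.87 times those with Oxali over the 36 genes, the value also found over all genes. The range was 0.75 at Polh to 1.07 at Ercc6, and 35 of 36 genes lay below 1, as did 11015 of all 12805 genes. Relative to the shift of regions in all 5 lists 27 of the 36 lay below 1, and with the deposited fold 34. None differed by 1.5 times in either direction, where 1.36% of all genes were that much higher and 2.99% that much lower. At Xpc the ratio was 0.99 (interval 0.90 to 1.09) and at Atr 0.98 (interval 0.86 to 1.10). Of 271 strong Cispl regions at these genes, 71 (26.2%, interval 21.3 to 31.7) were absent from the Oxali list, against 20.2% of all strong Cispl regions. In the other direction 11 of 208 (5.29%, interval 2.98 to 9.22) were absent from the Cispl list, against 11.2% of all strong Oxali regions. Both shares over all regions include regions between genes, and no share over gene windows was computed for this pair. The Cispl list is also the longer, at 174048 regions against 158621 with Oxali, and the part of list length was not tested.

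Adding IFNγ to oxaliplatin went with lower start-site levels at 36 of 36 genes, and at 11302 of all 12916 genes with a value in both lists. The median ratio of Oxali + IFNγ to Oxali was 0.72, against 0.76 over all genes, and 15 genes were at least 1.5 times lower and 0 higher (23.8 and 1.13% of all genes). With the deposited fold the median was 0.88 and 0 genes were that much lower (2.61% of all genes). By genome background the ratio was 0.51 at Rad51c, 0.53 at Ddb2 and at Nbn, 0.55 at Xpc and 0.78 at Chek1. Against IFNγ alone the median was 0.75, with 9 genes at least 1.5 times lower and 0 higher, where 18% of all genes were lower and 7.71% higher. Relative to the shift of regions in all 5 lists this median was 0.50 and 35 genes were that much lower (78.0% of all genes), and with the deposited fold 0.83 and 2 genes (3.13%). By genome background Chek1 was the only gene above 1 in that pair, at 1.10 (interval 0.98 to 1.24), but it lay below 1 under both other scalings, at 0.73 and 0.96. With the deposited fold, Fancm lay above 1 against Oxali, and Fancm and Palb2 against IFNγ. These are 3 pairs of pooled lists.

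Promoters of 30 of the 37 genes were found in the RefSeq table by symbol. Ddb2, Ercc3, Fancd2, Nbn, Rad50, Rev3l and Xpc were not. In the 300 bases from 250 before to 50 after the start, GGGCGG on either strand occurred in 19 of 30 genes (63.3%) and in 38.2% of all 27025 genes in the table. CCAAT, the site of NF-Y, occurred in 17 (56.7%; all genes 41.1%), and CCGGAAG, the core of an ETS factor site, in 7 (23.3%; all 9.93%). GCGCNTGCG, the site of NRF1, occurred in 10 (33.3%; all 7.12%), TTTCCCGC, an E2F site, in 4 (13.3%; all 1.24%) and CACGTG, an E-box, in 4 (13.3%; all 8.09%). The E2F letters were found at Brca2, Chek2, Fancg and Rad51c. All genes in the table include many that are not protein-coding, and a match says nothing of binding.

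In 201 bases at the summits of member regions away from start sites, TGAGTCA occurred in 45 of 229 (19.7%; all such regions 18.6%) and GAAANNGAA in 13 (5.68%; all 5.69%). TGACGTCA, the cyclic AMP response element, occurred in 2 (0.873%; all 0.330%). Among the 22 member regions called in every list with a platinum drug and in neither Ctrl nor IFNγ, 6 held TGAGTCA (27.3%; all 17.9%). Regions of that list pattern made up 9.52% of the members' 231 regions and 11.7% of all. For comparison, of the member regions away from start sites that were called in all 5 lists, 22 of 85 held TGAGTCA (25.9%; all 23.3%).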

How the data were processed

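The data are 5 deposited ATAC-seq peak lists, 1 per group, from 10 libraries. Per the labels and the study's methods, the authors trimmed reads with cutadapt, aligned them to mm10 with Bowtie2 2.2.8 and filtered them with SAMtools. Duplicates and reads from mitochondria were taken out. Both libraries of a group were then pooled, peaks were called with MACS2 2.1.0 without a control library, and blacklisted sequence was dropped. Tool names and versions are from the submitters' processing notes. The fold that the authors deposited is a ratio, with 1 added both to pileup and to local background. Their deposited −log10 p-value is the Poisson probability of the pileup, and the −log10 q-value adjusts it over the list.

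From these the whole-number pileup and the background of each peak were solved with Python 3.11.15 (NumPy 2.4.6, SciPy 1.17.1, pandas 2.3.3), which succeeded for 100% of peaks and was tested on simulated data. Summits of 1 interval were counted as 1 region, with the highest pileup kept. Levels divide the pileup by the list's genome background, which stands for depth. Genes and start sites are GENCODE M21 on mm10, and a gene's start-site level is the highest over the regions within 1 kb of its protein-coding starts. Ratio intervals are exact conditional ones and intervals of shares are Wilson ones at 95%. Both ends of a fragment can enter a pileup, so intervals are too narrow, and they cover counting error only.

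No test was run, because the deposited lists pool the replicates of a group. The 4 treated lists share the Ctrl list. Each member was placed in 1 of 5 roles. Values in every list are given for the 2 members per role with the largest and the 1 with the smallest start-site difference, members without a start-site region, members with 3 or more gained or lost regions (for these, counts), and, per treatment, the 3 strongest gains, 2 strongest losses and the 2 largest rises and falls away from start sites. Values of further members, and the direct ratios singled out, were chosen after values were seen. The members and lists were chosen with earlier results of these data known. Motif counts leave out chromosome 18. Alternatives changed the q limit, the overlap, the window, the length of the lists, the scaling and the definition of start sites. Counts per library were not analysed here. Some marker genes are not reported here.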

Additional observations from a re-analysis of the deposited data

Results flagged for a closer look

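Regions away from start sites at 4 genes were at least 1.5 times higher than Ctrl with a platinum drug and at least 1.5 times lower with IFNγ, which is why they are listed here. The difference between the treatments was not tested, and all ratios share the Ctrl list. A Chek2 intron region at chr5:110869049-110869823 had a ratio of 2.29 with Cispl and 0.498 with IFNγ. A Fanca intron region at chr8:123283907-123285198 had 1.80 with Oxali and 0.651 with IFNγ. The Polk intron region at chr13:96503008-96504032 had 1.83 with Oxali and 0.449 with IFNγ. The Rad50 intron region at chr11:53663356-53664558 had 1.80 with Oxali and 0.345 with IFNγ. In the IFNγ list their pileups were 30, 65, 53 and 32, in the shallowest of the lists. No start-site level of the 36 genes met this condition. Relative to the shift of regions in all 5 lists, the Chek2 region kept both sides of the condition, at 1.91 and 0.58. The Fanca, Polk and Rad50 regions no longer met it, with Oxali ratios of 1.39, 1.41 and 1.39 and IFNγ ratios of 0.76, 0.53 and 0.40.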

How the results depend on the processing

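No paired analysis was possible because pooling came before peak calling, and no replicate could be left out for the same reason. Of the values under other settings, 43 stayed within 1.5 times the count or within the order-statistic interval of the median, 21 moved further and 0 reversed. With the 100000 strongest regions of each list, gains were 26 (Oxali), 24 (Cispl) and 28 (Oxali + IFNγ), and losses 25, 24 and 25 (15.6, 15 and 15.6%, against 15.3, 13.6 and 15.7% of all regions). Without regions within 500 bp of the other list, gains were 32 with Oxali (17.3%, all 28.0%) and 46 with Oxali + IFNγ (22.4%, all 34.2%). At q of at most 1e-05, gains with IFNγ were 6 (4.05%, all 6.67%), and losses 10 (Oxali), 4 (Cispl) and 8 (Oxali + IFNγ), or 6.10, 2.44 and 4.88% (all 5.77, 3.46 and 4.93%). With a window of 1 kb, gains with IFNγ were 5 (4%, all 12.9%). The median start-site log2 ratio was -0.53, -0.75, -0.56 and -1.03, in the order of the report. Scaled to the median of regions in all 5 lists it was -0.90, -1.01, -0.33 and -1.40, and with the deposited fold over local background -0.28, -0.43, -0.22 and -0.47. The cause of these moves was not tested. Counting start sites of all transcripts, coding or not, an alternative added after seeing the data, gave a value to 37 of 37 genes and median ratios of 0.69, 0.58, 0.68 and 0.49. Depth limits weak regions, above all in the IFNγ list, and an uncalled region has no pileup in that list.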
